A study of Mus musculus with 5 samples.

Results

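In MMTV-PyMT mice the promoter of the mouse mammary tumor virus drives an oncogene, polyoma middle T, in mammary epithelial cells, and organoids were made from the tumors that arise. Cells that were cycling and cells that were not were compared inside 1 growth condition, organoids embedded in fibrillar Collagen I for 5 days. A well of a plate held 1 sorted cell, and its cycling state was read from the transcripts of Mki67, Top2a, Cdk1, Ccnb1, Birc5 and Ube2c, summed per 10000 counts of the well. A score of at least 6 made a well cycling and a score under 2 made it non-cycling. Of 445 Collagen I wells with over 2000 counts and under 8000 genes, 88 were cycling (43 in replicate 1 and 45 in replicate 3), 276 were non-cycling (146 and 130) and 81 lay between the thresholds (43 and 38). The 364 cycling and non-cycling wells are the cells described here, out of 1920 wells in the files of the series and 1255 that passed the same filter.

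The organoids were first grown in BME, a basement membrane extract, then moved to Collagen I or to fresh BME, and all cells were taken at day 5. After the gels were digested with collagenase and dispase and the organoids with trypsin, live cells were sorted into 384-well plates and processed by SORT-seq, a plate method in which each captured transcript carries a unique molecular identifier (UMI). The 2 Collagen I plates (replicates 1 and 3) are compared here, and 3 BME plates serve only to show where the cycling effect in Collagen I differs. All plates came from the same MMTV-PyMT organoid model with the same medium and no other agent, and nothing in the labels says that the plates are separate cultures, so that p-values measure only the spread between plates. Markers of other cell types were scarce. Of the immune markers Cd74, Lyz2 and H2-Ab1, Lyz2 and H2-Ab1 had no count and Cd74 reached at most 4.09 CPM (counts per 1000000), while Pecam1, an endothelial marker, stayed at or below 8.47 CPM. The fibroblast marker Lum had no count, and the other 5 fibroblast markers summed to 121 and 365 CPM in cycling wells and 104 and 388 CPM in non-cycling wells (replicate 1 before replicate 3 here and throughout). Of these, Col1a2 (0 and 125 CPM in cycling wells and 1.11 and 141 CPM in non-cycling wells) and Dcn (2.82 and 77.4 CPM in cycling wells and 3.34 and 61.3 CPM in non-cycling wells) were nearly confined to replicate 3 in both groups of wells. The epithelial marker Epcam was measured at 647 and 550.1 CPM in cycling wells and 668 and 758 CPM in non-cycling wells, and its log2 fold change of -0.23 did not pass the test (adjusted p = 0.178).

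A cell that divides copies its DNA in S phase, condenses and separates its chromosomes in mitosis, and returns to G1 or leaves the cycle. Many genes of DNA replication are switched on by E2F factors late in G1, and many genes of mitosis later, through promoters that carry CCAAT boxes and the cell cycle genes homology region (CHR). In mammary tumors, luminal cells carry keratins 8 and 18, and basal-like cells carry keratins 5, 14 and 17 and often lie at the border with the matrix.

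The 6 score genes set the groups, so their values describe the wells and test nothing. Mki67, the classical proliferation antigen, stood at 339 and 352 CPM in cycling wells and 4.46 and 6.13 CPM in non-cycling wells. Ccnb1, the cyclin that drives entry into mitosis, stood at 257 and 254 CPM in cycling wells and 3.34 and 0 CPM in non-cycling wells. The other 4, Top2a, Cdk1, Birc5 and Ube2c, lay between 292 and 576 CPM in cycling wells and between 2.04 and 17.8 CPM in non-cycling wells. The median score of a cycling well was 18.6 in replicate 1 and 17.9 in replicate 3, with maxima of 76.4 and 67.0. In the non-cycling wells the median was 0 in both plates, and 106 of 146 and 117 of 130 wells had no count of any score gene. A count of 0 in a shallow well is weak evidence: the median non-cycling well held 5781 counts in replicate 1 and 3617 in replicate 3, and the median cycling well 7003 and 4497. Cycling wells also rested on few counts in part. Fewer than 3 counts of the score genes made up the score in 3 cycling wells of replicate 1 and 5 of replicate 3, and all 6 genes were detected in 17 of 43 and 8 of 45. At the upper threshold, the nearest wells inside and outside scored 6.02 and 5.47 in replicate 1 and 6.30 and 5.77 in replicate 3. At the lower threshold they scored 1.91 and 2.01, and 1.93 and 2.03.

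Cycling wells made up 18.5% of the wells kept in replicate 1 (exact Clopper-Pearson 95% interval 13.8 to 24.1%) and 21.1% in replicate 3 (15.8 to 27.2%), where the intervals cover counting error only. The same rule put 49.3%, 43.6% and 45.7% of the wells of the 3 BME plates in the cycling group. Those plates were deeper and carry the name of a single sequencing run, while each Collagen I plate carries another, so matrix, run and depth cannot be told apart in that contrast. With the score taken on wells thinned to 2000 counts, the shares were 41.6%, 39.8% and 43.0% in BME and 16.8% and 17.8% in Collagen I. Matrix and run still cannot be told apart at that equal depth. Cycling wells held more detected genes than non-cycling wells, with medians of 2723 against 2205 in replicate 1 and 1878 against 1558 in replicate 3. They also held more counts in both plates, as given above. At equal depth, with wells thinned as above, the medians were 1141 against 1089 in replicate 1 and 1070 against 1038 in replicate 3. The gap in detected genes was thus smaller at equal depth. Transcript counts per count of ERCC spike-in, the synthetic RNA added equally to each well, had medians of 83.7 against 76.9 in replicate 1 and 61.6 against 54.1 in replicate 3. The ratio of cycling to non-cycling medians was 1.11 ± 0.03 (SD, n = 2 plates), and an exact paired permutation test gives p = 0.5, the smallest p that 2 plates allow. The ratio turned to 0.973 among wells over 5000 counts, and rose to 1.29 when cycling meant a score of at least 10 and non-cycling no count. With transcript and ERCC counts each pooled over the wells of a group, the values were 85.1 against 45.0 in replicate 1. In replicate 3 the pooled values were 10.4 against 16.8, in the opposite direction. Genes named with the prefix mt- made up a median of 2.55% of the counts of a cycling well and 2.74% of a non-cycling well in replicate 1, and 3.71% and 3.99% in replicate 3. All genes placed on the mitochondrial chromosome made up 6.96% and 6.90% in replicate 1, and 9.96% and 8.33% in replicate 3. That wider share was not lower in cycling wells.

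**Figure D1:**
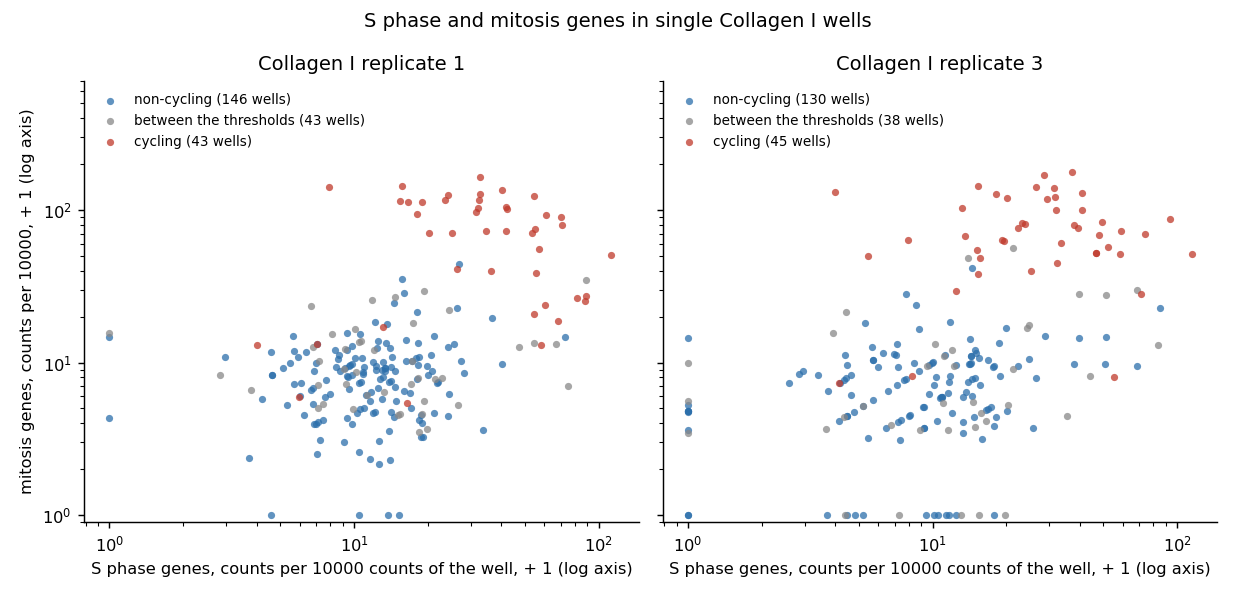
Each point is 1 well of a Collagen I plate, with counts of 67 S phase genes on the horizontal axis and of 63 mitosis and G2/M genes other than the score genes on the vertical axis, both per 10000 counts of the well plus 1 on log axes. Most cycling wells (43 and 45, red) lie above the non-cycling wells (146 and 130, blue) in mitosis genes, with medians of 71.9 against 7.30 in replicate 1 and 68.8 against 6.38 in replicate 3, and a few red wells lie among the blue ones.

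Single wells differed in where they stood in the cycle. Counts of mitosis and G2/M genes other than the score genes had a median of 71.9 per 10000 in the cycling wells of replicate 1 and 68.8 in replicate 3, against 7.30 and 6.38 in non-cycling wells. The S phase genes had medians of 33.7 and 28.4 in cycling wells and 11.1 and 9.0 in non-cycling wells. Within the cycling group, S phase counts exceeded mitosis counts in 11 of 43 wells of replicate 1 and 6 of 45 of replicate 3. The score takes its genes from G2 and mitosis, so wells early in the cycle may score low. With every well thinned to 2000 counts, the S phase medians were 7 and 5 counts in cycling and 2 and 2 in non-cycling wells, and the mitosis medians 15 and 14 against 1.5 and 1. Wells between the thresholds had S phase medians of 12.2 and 11.7 per 10000 and mitosis medians of 7.65 and 4.56, close to the non-cycling wells.

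Counts were summed per plate and group, which gave 4 sums of 242238 to 935981 counts, and cycling was compared with non-cycling within plates by edgeR's quasi-likelihood test. CPM values of cycling and non-cycling wells are over the genes tested, after scaling between the sums. Those of wells between the thresholds were divided by their counts over the same genes, without that scaling. Outside the score genes 6395 genes were tested, of which 733 (11.5%) were higher in cycling wells and 729 (11.4%) lower at an adjusted p under 0.05, and 1455 of these 1462 had the same direction in both plates. Over all 6395 genes, both cycling values lay above both non-cycling values in 1827 and below both in 1846. The named genes were picked from these same sums, so a lack of overlap between their groups adds no support. The spread was estimated across genes with 1 residual degree of freedom per gene, and the common biological coefficient of variation was 0.074. No gene was given a spread of its own, so disagreement between the plates in 1 gene does not widen its standard error. DESeq2 called 116 genes higher and 70 lower, and leaving out replicate 1 or replicate 3, in a fit that borrows the spread from the BME plates, left 424 and 655 calls. Of the 122 genes picked by the rule for named genes and called, 63 were called without replicate 1, 74 without replicate 3, 46 without either and 44 by DESeq2, and in 120 both cycling values lay on one side of both non-cycling values (the exceptions were Slpi and Klf4).

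**Figure D2:**
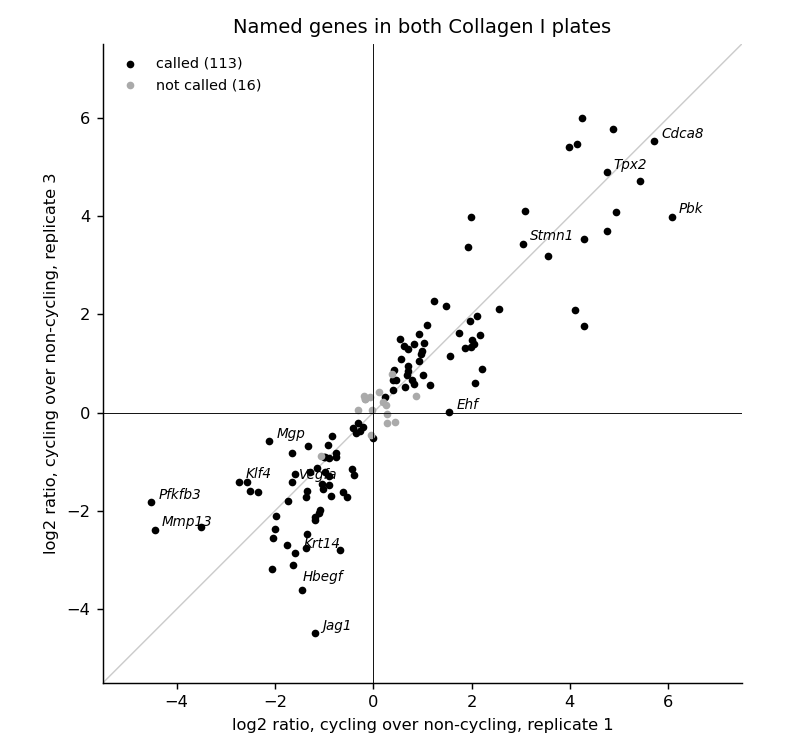
Each point is a gene picked by the rule for named genes with counts in all 4 sums, with the log2 ratio of CPM + 1 in cycling over non-cycling wells in replicate 1 (horizontal) and replicate 3 (vertical), and the grey diagonal marks equal ratios. The 113 called genes (black) have the same sign in both plates, with Ehf on the zero line in replicate 3, and genes such as Jag1, Krt14, Pfkfb3 and Mgp lie far from the diagonal.

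Genes of mitosis other than the score genes were higher in cycling wells without exception among the 58 tested of 63 in the files (median log2 fold change 4.23, against -0.01 over all genes tested). They belong to the same programme as the score, so their rise follows from the choice of wells and is given as a description. Together they made up 7444 and 8259.7 CPM in cycling wells and 801 and 785 CPM in non-cycling wells. Cdc20, the activator of the anaphase-promoting complex, was measured at 226 and 275 CPM in cycling wells and 6.68 and 4.09 CPM in non-cycling wells. Aurka, the kinase that matures the spindle poles, was measured at 105 and 159 CPM in cycling wells and 0 and 4.09 CPM in non-cycling wells. Cdca8, a subunit of the chromosomal passenger complex, was measured at 169.5 and 232 CPM in cycling wells and 2.23 and 4.09 CPM in non-cycling wells. In these 3 genes the groups lay far apart in both plates. Plk1, the polo-like kinase of mitotic entry, stood at 167 and 193 CPM in cycling wells and 7.80 and 2.04 CPM in non-cycling wells, and Tpx2, a spindle assembly factor, at 266 and 271 CPM in cycling wells and 8.91 and 8.18 CPM in non-cycling wells. Racgap1 and Anln, which act in cytokinesis, stood at 226 and 301 CPM in cycling wells and 13.4 and 6.13 CPM in non-cycling wells and at 138 and 185 CPM in cycling wells and 2.23 and 6.13 CPM in non-cycling wells. Bub1b and Kif2c, of the spindle checkpoint and of microtubule depolymerization at kinetochores, had no count in either non-cycling sum. Fam64a, a mitotic gene and the largest rise with counts in a non-cycling sum, stood at 136 and 98.8 CPM in cycling wells and 0 and 2.04 CPM in non-cycling wells, and Ccna2, the cyclin of S phase and G2, at 201 and 189 CPM in cycling wells and 5.57 and 10.2 CPM in non-cycling wells. Against a floor of 3 counts over both non-cycling sums, Bub1b was at least 41.0-fold higher, Kif2c at least 40.2-fold, Cep55 at least 32.3-fold and Troap at least 22.1-fold.

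Promoter sequences of these mitosis genes Cdc20, Cdca8 and Aurka, and of the score gene Ccnb1, are shown because CCAAT boxes stand in groups close to their starts, and in Cdc20 next to a CHR. Each is the 180 bases just before the transcription start in the mouse RefSeq annotation of build GRCm38.p6 (the assembly also called mm10), written 5′ to 3′ on the strand of the gene, with capitals for CCAAT or its reverse complement ATTGG, and for the CHR letters TTTGAA or TTCAAA, which only the stretch of Cdc20 holds. The stretches lie at chr13:100786487-100786666 (minus strand) for Ccnb1, chr4:118437344-118437523 (minus strand) for Cdc20, chr4:124936918-124937097 (minus strand) for Cdca8 and chr2:172370571-172370750 (minus strand) for Aurka.
Ccnb1: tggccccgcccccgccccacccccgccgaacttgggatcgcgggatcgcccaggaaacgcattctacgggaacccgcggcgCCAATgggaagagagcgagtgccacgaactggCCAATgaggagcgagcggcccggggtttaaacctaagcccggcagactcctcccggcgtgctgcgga
Cdc20: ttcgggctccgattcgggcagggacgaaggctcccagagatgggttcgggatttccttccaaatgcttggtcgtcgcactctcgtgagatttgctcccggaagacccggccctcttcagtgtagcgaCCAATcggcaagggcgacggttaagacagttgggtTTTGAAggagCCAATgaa
Cdca8: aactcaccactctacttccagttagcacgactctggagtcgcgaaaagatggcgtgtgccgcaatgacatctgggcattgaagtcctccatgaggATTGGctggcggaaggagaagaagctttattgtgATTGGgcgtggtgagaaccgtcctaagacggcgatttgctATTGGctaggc
Aurka: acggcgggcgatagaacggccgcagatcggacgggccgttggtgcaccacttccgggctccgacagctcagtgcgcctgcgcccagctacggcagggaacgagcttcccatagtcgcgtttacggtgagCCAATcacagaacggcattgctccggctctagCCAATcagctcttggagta
Over windows from 250 bases before to 50 after the start, CCAAT on either strand was present in 38 of 52 windows of the mitosis genes called higher (73.1%; 47 of 58 genes matched), in 5 of 6 windows of the score genes and in 37.4% of all 32851 windows in the table. TTTGAA on either strand was present in 37 of 52 windows of the mitosis genes (71.2%), 4 of 6 of the score genes and 17.9% of all windows. Both stood in 31 of the 52 windows (59.6%) and in 6.95% of all windows. In the S phase genes called higher, described next, CCAAT was present in 22 of 36 windows (61.1%). TTTGAA was present there in 6 windows (16.7%) and both in 4 (11.1%). A high share of CCAAT was thus not particular to the mitosis genes. These are matches of letters in a fixed window, with no measurement of binding.

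S phase genes were called higher in 37 of 46 tested genes (67 in the files) and lower in 0, with a median log2 fold change of 1.65, against 11.5% of all genes called higher. The list summed to 4675 and 4027 CPM in cycling wells and 1390.4 and 1263 CPM in non-cycling wells. E2f8, an E2F repressor that is itself switched on in S phase, was measured at 56.5 and 38.7 CPM in cycling wells and 1.11 and 2.04 CPM in non-cycling wells (log2 fold change 4.88 ± 0.67, adjusted p = 2.25e-11). Chaf1a, which places histones on new DNA, was measured at 62.1 and 30.1 CPM in cycling wells and 2.23 and 8.18 CPM in non-cycling wells (log2 fold change 3.42 ± 0.56, adjusted p = 3.31e-08). The groups did not overlap in either gene, but the non-cycling values rest on a handful of counts. DESeq2 and the fits without 1 plate called a smaller share of all genes than the main fit. In DESeq2 it was 116 higher and 70 lower of 14077 genes. The fits without replicate 1 and without replicate 3, whose calls over all genes are given above, tested 10963 and 10989 genes. List counts from those fits, here and below, are therefore to be read beside those calls, and not against 11.5% or 11.4%. In the fit of wells under the keratin threshold, used below, 507 of 5329 genes were higher and 507 lower. Without replicate 1 the call of Chaf1a was lost (adjusted p = 0.384), and 16 of 67 genes of the list that this larger fit tested were called, against 36 of 67 without replicate 3.

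Mcm6, a subunit of the replicative helicase, is shown for its E2F letters and was chosen after the values were seen. It was measured at 102 and 116 CPM in cycling wells and 41.2 and 24.5 CPM in non-cycling wells (log2 fold change 1.64 ± 0.32, adjusted p = 7.93e-06), and both cycling values exceeded both non-cycling values. The 180 bases before its start lie at chr1:128359706-128359885 (minus strand), and capitals mark TTTNNCGC or its reverse complement GCGNNAAA, 2 of which overlap.
Mcm6: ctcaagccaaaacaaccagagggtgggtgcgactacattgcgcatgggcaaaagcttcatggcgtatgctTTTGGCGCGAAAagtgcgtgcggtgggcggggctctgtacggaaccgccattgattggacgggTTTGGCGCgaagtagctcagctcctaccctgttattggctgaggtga
These letters were present on either strand in 11 of 36 windows of the S phase genes called higher (30.6%; 28 of 37 genes matched). They were present in 6 of 52 windows of the mitosis genes (11.5%) and 86 of 619 of the other genes called higher (13.9%). The share was 8.91% over all genes tested and 5.17% of all windows.

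Chromatin proteins of dividing cells were mostly higher (21 of 25 tested, 1 lower, median 1.15), as were tubulins (8 of 9 tested, 0 lower, median 1.14). Over all genes 11.5% were called higher. Hmgb2, a chromatin protein abundant in proliferating cells, was measured at 472 and 305 CPM in cycling wells and 39.0 and 32.7 CPM in non-cycling wells (log2 fold change 3.46 ± 0.22, adjusted p = 6.17e-52). Stmn1, which destabilizes microtubules, was measured at 506 and 429.7 CPM in cycling wells and 60.2 and 38.8 CPM in non-cycling wells (log2 fold change 3.20 ± 0.20, adjusted p = 1.4e-54). H2afx, the histone variant marked at DNA breaks, was measured at 93.2 and 85.9 CPM in cycling wells and 10.0 and 4.09 CPM in non-cycling wells (log2 fold change 3.49 ± 0.43, adjusted p = 3.73e-14). Each of these had both cycling values several times above both non-cycling values. The lone chromatin gene that was lower, Hmga2, encodes an architectural protein of embryonic and invasive cells and is named because of its direction. It stood at 11.3 and 0 CPM in cycling wells and 35.7 and 51.1 CPM in non-cycling wells (log2 fold change -2.57 ± 0.60, adjusted p = 0.000257; adjusted p = 0.234 without replicate 3). Among tubulins, the abundant Tuba1b was measured at 2031 and 2149 CPM in cycling wells and 605 and 699 CPM in non-cycling wells (log2 fold change 1.69 ± 0.11, adjusted p = 4.74e-54). Tubb4b was measured at 607 and 584 CPM in cycling wells and 102 and 135 CPM in non-cycling wells (log2 fold change 2.37 ± 0.16, adjusted p = 7.1e-44). Without replicate 1 the counts were 13 of 27 chromatin genes and 4 of 9 tubulins higher, and without replicate 3 16 of 27 and 6 of 10.

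Regulators of the G1 to S step did not move as a group (3 of 20 tested higher, 3 lower, median 0.001), against 11.5% and 11.4% of all genes. The CDK inhibitor Cdkn2c (p18) was higher in cycling wells, at 45.2 and 73.1 CPM in cycling wells and 11.1 and 6.13 CPM in non-cycling wells (log2 fold change 2.56 ± 0.48, adjusted p = 1.75e-06). Cdkn2d (p19) was measured at 45.2 and 38.7 CPM in cycling wells and 8.91 and 20.4 CPM in non-cycling wells (log2 fold change 1.67 ± 0.48, adjusted p = 0.00381), and the pocket protein Rbl1 (p107) at 42.4 and 47.3 CPM in cycling wells and 10.0 and 12.3 CPM in non-cycling wells (log2 fold change 2.00 ± 0.49, adjusted p = 0.000458). Cdkn1a, the p53 target and CDK inhibitor p21, was lower, at 189 and 232 CPM in cycling wells and 369 and 470.2 CPM in non-cycling wells (log2 fold change -0.99 ± 0.17, adjusted p = 8.85e-08), as was the antiproliferative gene Btg1. Phlda3, a p53 target that restrains Akt, was measured at 81.9 and 107 CPM in cycling wells and 206 and 174 CPM in non-cycling wells (log2 fold change -1.06 ± 0.23, adjusted p = 5.44e-05). The calls of Rbl1 (adjusted p = 0.117), Cdkn2d (0.569) and Phlda3 (0.264) were lost without replicate 1, and without replicate 3 that of Cdkn2c (0.0504).

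**Figure D3:**
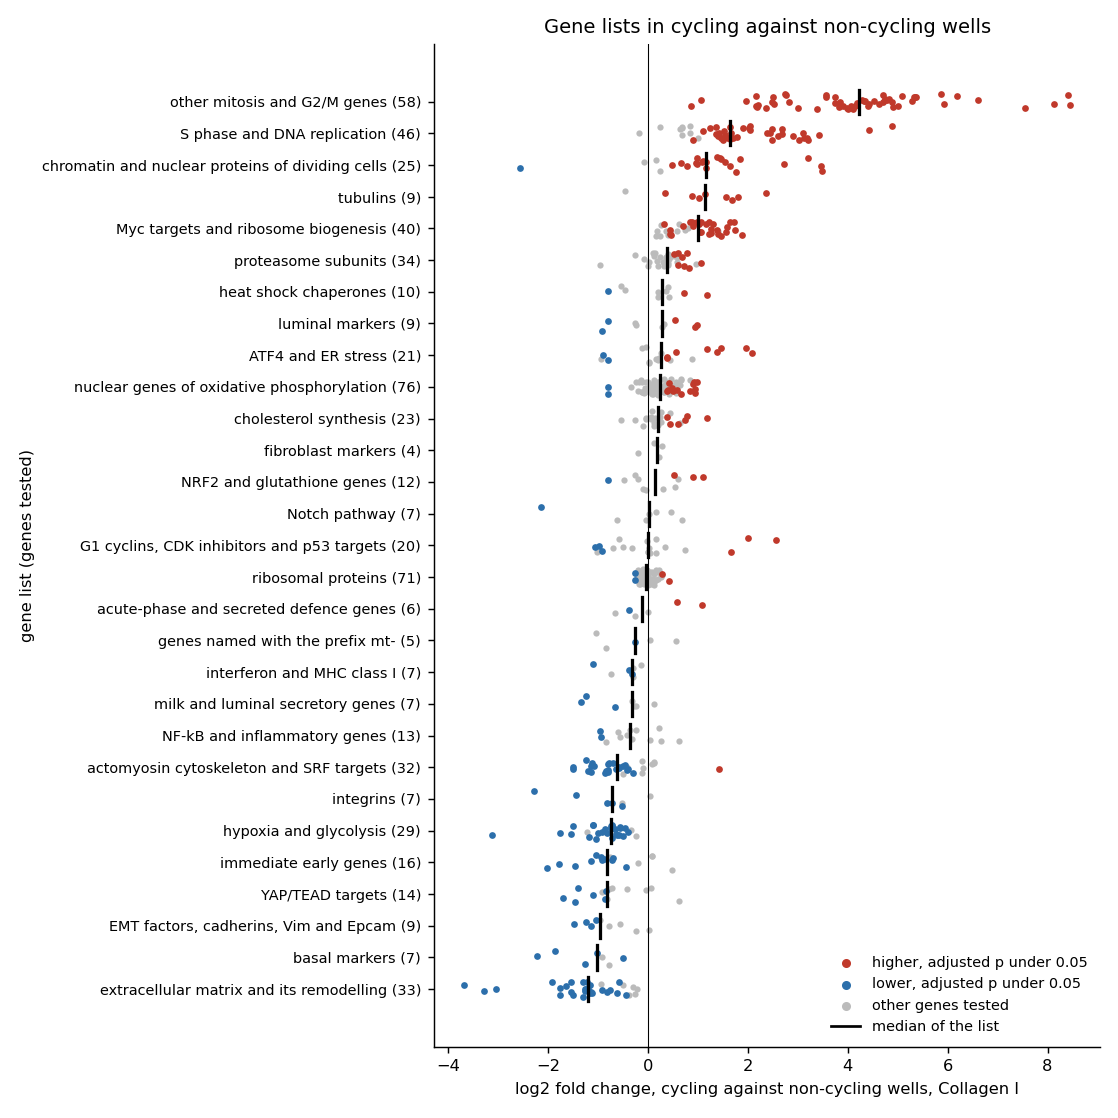
Each point is a gene of a list, placed by its log2 fold change between cycling and non-cycling wells of Collagen I, with called genes in red (higher) or blue (lower) and the median of the list as a black bar. Lists of mitosis (median 4.23), S phase (1.65) and ribosome biogenesis (1.01) lie to the right of 0, and lists of extracellular matrix (-1.20), basal markers (-1.02) and hypoxia (-0.73) to the left, and the fitted values of Bub1b, Kif2c, Cep55 and Troap have no count behind them in non-cycling wells.

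**Figure D4:**
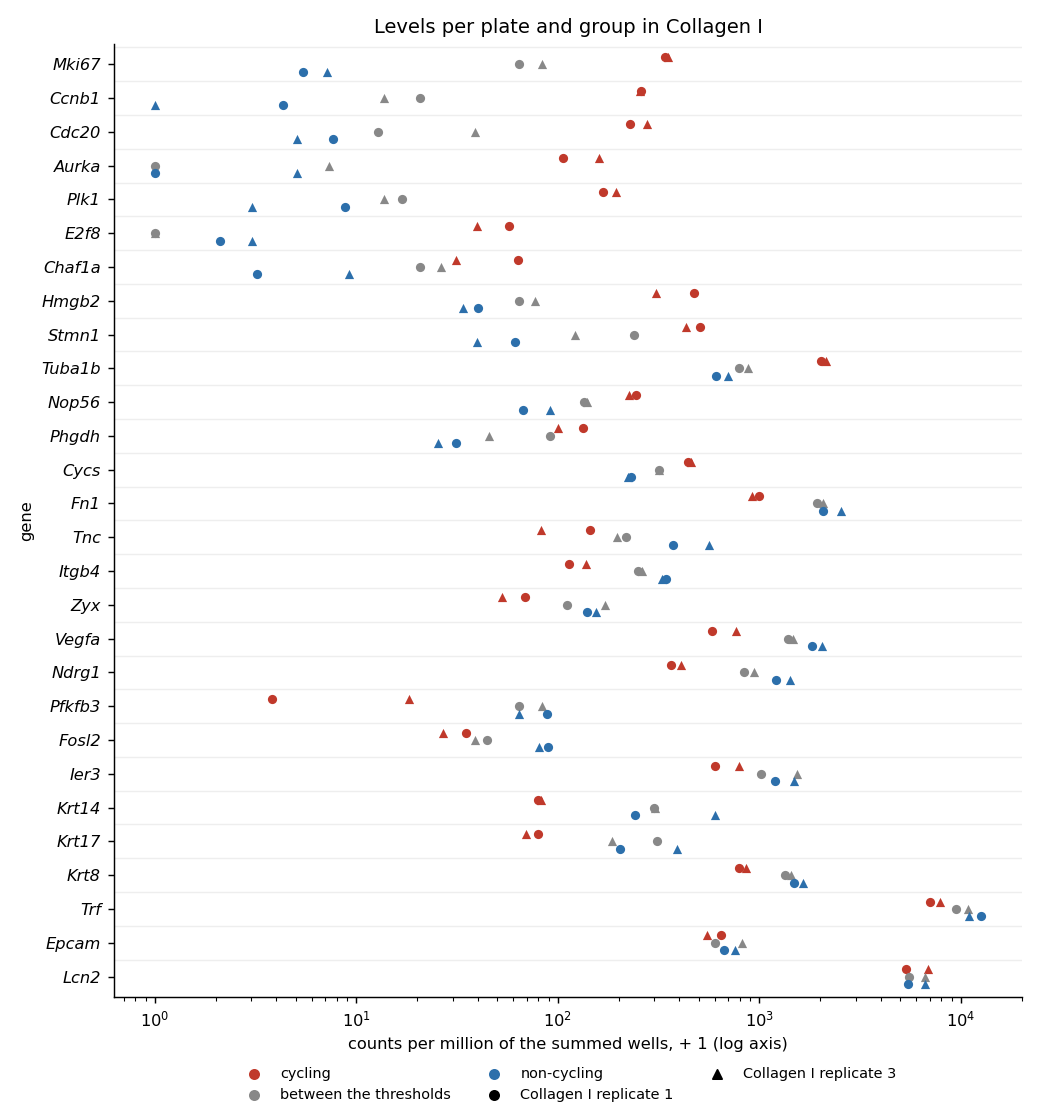
CPM plus 1 on a log axis for 28 named genes in the summed wells of each group, with circles for replicate 1 and triangles for replicate 3. Cycling sums (red) lie to the right of non-cycling sums (blue) from Mki67 to Cycs and to the left from Fn1 to Trf. The wells between the thresholds (grey), which were not scaled between the sums, mostly lie between them.

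Outside the lists of mitosis and S phase, 638 genes were called higher. Among ribosome biogenesis and Myc target genes 28 of 40 tested were higher and 0 lower (median 1.01) against the 11.5% over all genes. Their sum was 10789 and 9343 CPM in cycling wells and 6613 and 6383 CPM in non-cycling wells. Nop56, a core protein of the particles that methylate ribosomal RNA, was measured at 243 and 223 CPM in cycling wells and 65.7 and 90.0 CPM in non-cycling wells (log2 fold change 1.64 ± 0.22, adjusted p = 2.14e-12). Nop58, its partner in the same particles, was measured at 186 and 150.4 CPM in cycling wells and 65.7 and 32.7 CPM in non-cycling wells (log2 fold change 1.72 ± 0.25, adjusted p = 5.06e-10). Dkc1, the pseudouridine synthase dyskerin, was measured at 70.6 and 47.3 CPM in cycling wells and 16.7 and 16.4 CPM in non-cycling wells (log2 fold change 1.88 ± 0.41, adjusted p = 8.9e-05). Nolc1, a nucleolar chaperone of these particles, was measured at 105 and 94.5 CPM in cycling wells and 25.6 and 36.8 CPM in non-cycling wells (log2 fold change 1.74 ± 0.34, adjusted p = 7.01e-06). In each of the 4 genes the groups did not overlap. Without replicate 1 the log2 fold changes of Dkc1 and Nolc1 were 1.45 and 1.28, and without replicate 3 they were 2.06 and 2.01. The ribosomal proteins themselves showed 2 of 71 genes higher, 2 lower and a median log2 fold change of -0.04.

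In the list of ATF4 and ER stress genes 8 of 21 tested were higher and 2 lower (median 0.26), against 11.5% and 11.4% of all genes. Without replicate 1 the list had 3 of 26 genes higher and a median of -0.09, and without replicate 3 3 of 27 higher. Phgdh, the first enzyme of serine synthesis from glucose, was measured at 133 and 98.8 CPM in cycling wells and 30.1 and 24.5 CPM in non-cycling wells (log2 fold change 2.09 ± 0.33, adjusted p = 9.79e-09). Psat1, the next enzyme of that route, was measured at 203 and 142 CPM in cycling wells and 44.6 and 47.0 CPM in non-cycling wells (log2 fold change 1.97 ± 0.26, adjusted p = 1.39e-12). Shmt2, which passes a carbon unit from serine to folate in mitochondria, was measured at 133 and 163 CPM in cycling wells and 61.3 and 47.0 CPM in non-cycling wells (log2 fold change 1.38 ± 0.26, adjusted p = 2.32e-06). Asns, asparagine synthetase, was measured at 102 and 68.8 CPM in cycling wells and 23.4 and 45.0 CPM in non-cycling wells (log2 fold change 1.47 ± 0.34, adjusted p = 0.00025). All 4 had both cycling values above both non-cycling values, and the call was lost for Asns without replicate 1 (adjusted p = 0.587) and for Shmt2 without replicate 3 (0.0817). Slc3a2 and Vldlr, a subunit of amino acid transporters and a lipoprotein receptor, were the genes of the list called lower. The call of Slc3a2 was lost without replicate 3 (adjusted p = 0.21) and that of Vldlr without either plate (0.0754 and 0.0586).

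Oxidative phosphorylation, proteasome and cholesterol genes moved less. Nuclear genes of oxidative phosphorylation were higher in 13 of 76 tested and lower in 2 (median 0.25), not far from the 11.5% over all genes. Cycs, cytochrome c, was measured at 444 and 456 CPM in cycling wells and 231 and 221 CPM in non-cycling wells (log2 fold change 0.99 ± 0.16, adjusted p = 8.42e-09). Proteasome subunits were higher in 8 of 34 and lower in 0 (median 0.39), and Psmc3, a subunit of its regulatory ATPase ring, stood at 178 and 202 CPM in cycling wells and 90.2 and 87.9 CPM in non-cycling wells (log2 fold change 1.07 ± 0.22, adjusted p = 2.28e-05). Cholesterol synthesis genes were higher in 6 of 23 and lower in 0 (median 0.20). Idi1, an isomerase of the isoprenoid route, stood at 379 and 249 CPM in cycling wells and 219 and 157 CPM in non-cycling wells (log2 fold change 0.74 ± 0.17, adjusted p = 0.000203). Without replicate 1 the calls of Psmc3 (adjusted p = 0.0569) and Idi1 (0.215) were lost, and the counts of genes higher were 3 of 77, 0 of 36 and 0 of 23 for the 3 lists. Without replicate 3 they were 3 of 77, 1 of 37 and 1 of 23.

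Extracellular matrix genes were lower in cycling wells in 27 of 33 tested genes and higher in 0 (median -1.20), against 11.4% of all genes. The whole list summed to 5367 and 5148 CPM in cycling wells and 10251 and 11396 CPM in non-cycling wells. Fn1, fibronectin, was measured at 997 and 919.7 CPM in cycling wells and 2064 and 2537 CPM in non-cycling wells (log2 fold change -1.24 ± 0.10, adjusted p = 3.31e-30). Tnc, tenascin C, a matrix protein of remodelling tissue, was measured at 144 and 81.7 CPM in cycling wells and 372 and 560.2 CPM in non-cycling wells (log2 fold change -1.91 ± 0.19, adjusted p = 1.35e-22). Mmp13, a collagenase, was measured at 2.82 and 8.59 CPM in cycling wells and 82.4 and 49.1 CPM in non-cycling wells (log2 fold change -3.68 ± 0.59, adjusted p = 1.84e-08). Plau, the urokinase that activates plasmin, was measured at 2.82 and 8.59 CPM in cycling wells and 42.3 and 47.0 CPM in non-cycling wells (log2 fold change -3.05 ± 0.64, adjusted p = 2.73e-05). Timp1, an inhibitor of matrix metalloproteinases, was measured at 5.65 and 0 CPM in cycling wells and 41.2 and 26.6 CPM in non-cycling wells (log2 fold change -3.29 ± 0.74, adjusted p = 0.000124). Both cycling values were below both non-cycling values in these 5 genes, and the last 3 had few counts in cycling wells. The calls of Mmp13 (adjusted p = 0.369), Timp1 (0.0732) and Plau (0.178) were lost without replicate 1. The list had 13 of 40 genes lower without replicate 1 and 13 of 39 without replicate 3, and 21 of 28 when only wells under the keratin threshold given further on were used.

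Integrins were lower in 5 of 7 tested and higher in 0 (median -0.73), against 11.4% of all genes. The count was 3 of 10 without replicate 1, 2 of 10 without replicate 3 and 1 of 10 with DESeq2. Itgb4, the laminin-binding partner of hemidesmosomes, was measured at 113 and 138 CPM in cycling wells and 342 and 327 CPM in non-cycling wells (log2 fold change -1.44 ± 0.19, adjusted p = 4.28e-12). Itga2, the alpha subunit of a collagen receptor, was measured at 5.65 and 4.30 CPM in cycling wells and 25.6 and 26.6 CPM in non-cycling wells (log2 fold change -2.29 ± 0.71, adjusted p = 0.00827), and its call was lost without either plate (adjusted p = 0.344 and 0.277). Single ligands and secreted factors picked by the rule for named genes are given next. Jag1, a Notch ligand, was measured at 31.1 and 4.30 CPM in cycling wells and 72.4 and 119 CPM in non-cycling wells (log2 fold change -2.13 ± 0.40, adjusted p = 1.6e-06), with a difference carried mostly by replicate 3 and no call without it (0.131). Hbegf, a ligand of the EGF receptor, was measured at 31.1 and 17.2 CPM in cycling wells and 98.0 and 155 CPM in non-cycling wells (log2 fold change -2.23 ± 0.35, adjusted p = 4.11e-09). Inhba, a subunit of activin, was measured at 42.4 and 17.2 CPM in cycling wells and 117 and 223 CPM in non-cycling wells (log2 fold change -2.28 ± 0.31, adjusted p = 5.66e-12), and was not called without replicate 3 (0.18). Sostdc1, a secreted antagonist of BMP and Wnt signals, was measured at 31.1 and 8.59 CPM in cycling wells and 134 and 85.9 CPM in non-cycling wells (log2 fold change -2.37 ± 0.36, adjusted p = 3.12e-09).

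Contractile and cytoskeletal genes were lower by smaller amounts. Of 32 tested genes of the actomyosin list 23 were lower and 1 higher (median -0.61), against 11.4% of all genes called lower. Zyx, zyxin of focal adhesions, was measured at 67.8 and 51.6 CPM in cycling wells and 138 and 153 CPM in non-cycling wells (log2 fold change -1.23 ± 0.27, adjusted p = 5.76e-05). Cotl1, an F-actin binding protein, was measured at 65.0 and 47.3 CPM in cycling wells and 141 and 198 CPM in non-cycling wells (log2 fold change -1.50 ± 0.26, adjusted p = 3.12e-07). Vim, vimentin, was measured at 257 and 185 CPM in cycling wells and 480.2 and 517 CPM in non-cycling wells (log2 fold change -1.13 ± 0.16, adjusted p = 4.44e-11). The gene that was higher, Myh10, encodes the heavy chain of non-muscle myosin IIB, and stood at 67.8 and 64.5 CPM in cycling wells and 22.3 and 28.6 CPM in non-cycling wells (log2 fold change 1.42 ± 0.37, adjusted p = 0.00108). Without replicate 1 the log2 fold changes of Zyx and Cotl1 were -1.65 and -2.14, and without replicate 3 they were -1.04 and -1.14. Vim was not called without either plate (0.0532 and 0.153), and Myh10 not without replicate 1 (0.304). Among wells under the keratin threshold 10 of 31 genes were lower, in a fit that called 507 of 5329 genes lower. YAP/TEAD targets were lower in 6 of 14 tested and higher in 0 (median -0.82), against 11.4% of all genes. Their count was 3 of 17 without replicate 1, 2 of 18 without replicate 3 and 0 of 18 with DESeq2. One of the 6, Myof, a membrane repair protein, was measured at 62.1 and 47.3 CPM in cycling wells and 133 and 190.1 CPM in non-cycling wells (log2 fold change -1.46 ± 0.27, adjusted p = 1.1e-06). It was not called without replicate 3 (adjusted p = 0.0616).

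In the list of EMT factors and cadherins 4 of 9 tested were lower and 0 higher (median -0.97), against 11.4% of all genes. The count of that list was 2 of 10 without replicate 1 and 2 of 10 without replicate 3. Snai1, a repressor of E-cadherin, was measured at 67.8 and 25.8 CPM in cycling wells and 156 and 121 CPM in non-cycling wells (log2 fold change -1.48 ± 0.28, adjusted p = 2.9e-06). Immediate early genes, which respond within minutes to growth signals and to cell dissociation, were lower in 11 of 16 tested and higher in 0 (median -0.82). Over all genes 11.4% were lower. Of the 5 that were not called, 3 had a positive log2 fold change. Fosl2, an AP-1 subunit, was measured at 33.9 and 25.8 CPM in cycling wells and 88.0 and 79.7 CPM in non-cycling wells (log2 fold change -1.46 ± 0.36, adjusted p = 0.000665). Klf6, a zinc finger factor induced by injury, was measured at 96.0 and 120.3 CPM in cycling wells and 215 and 264 CPM in non-cycling wells (log2 fold change -1.15 ± 0.21, adjusted p = 1.4e-06). Egr2, a zinc finger factor of the early growth response, was measured at 16.9 and 0 CPM in cycling wells and 37.9 and 49.1 CPM in non-cycling wells (log2 fold change -2.02 ± 0.54, adjusted p = 0.00186). Without replicate 1 the calls of Fosl2 (adjusted p = 0.0825) and Klf6 (0.121) were lost, without replicate 3 those of Klf6 (0.0762) and Egr2 (0.37), and the list had 1 of 19 and 5 of 18 genes lower. DESeq2 called 0 of 20 immediate early genes lower, and 9 of 13 were lower among wells under the keratin threshold. The part of enzymatic dissociation in these levels was not tested.

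Outside the lists, the rule for named genes picked those with the largest falls. Fndc1, a secreted protein with fibronectin type III domains, was measured at 42.4 and 25.8 CPM in cycling wells and 178 and 155 CPM in non-cycling wells (log2 fold change -2.24 ± 0.30, adjusted p = 2.23e-12). Slc4a4, a sodium bicarbonate cotransporter, was measured at 33.9 and 17.2 CPM in cycling wells and 117 and 117 CPM in non-cycling wells (log2 fold change -2.09 ± 0.34, adjusted p = 3.12e-08). Kctd11, an adaptor of a ubiquitin ligase that restrains Hedgehog signaling, was measured at 28.2 and 30.1 CPM in cycling wells and 115 and 133 CPM in non-cycling wells (log2 fold change -2.06 ± 0.33, adjusted p = 1.99e-08). These 3 kept their calls without either plate. Arrdc3, an arrestin domain protein, was measured at 22.6 and 34.4 CPM in cycling wells and 134 and 106 CPM in non-cycling wells (log2 fold change -2.15 ± 0.34, adjusted p = 7.8e-09). Nupr1, a nuclear stress protein, was measured at 22.6 and 30.1 CPM in cycling wells and 118 and 94.0 CPM in non-cycling wells (log2 fold change -2.07 ± 0.35, adjusted p = 1.51e-07). Fbxo32, a subunit of a ubiquitin ligase and a known FoxO target, was measured at 25.4 and 47.3 CPM in cycling wells and 156 and 127 CPM in non-cycling wells (log2 fold change -2.06 ± 0.31, adjusted p = 1.09e-09). The calls of Arrdc3 (adjusted p = 0.0546), Nupr1 (0.176) and Fbxo32 (0.215) were lost without replicate 1.

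Hypoxia and glycolysis genes were lower in 26 of 29 tested genes and higher in 0 (median -0.73), again against 11.4% of all genes. The list summed to 18442 and 18578 CPM in cycling wells and 30814 and 30695 CPM in non-cycling wells. Vegfa, the angiogenic growth factor, was measured at 582 and 761 CPM in cycling wells and 1834 and 2036 CPM in non-cycling wells (log2 fold change -1.54 ± 0.11, adjusted p = 4.52e-41). Ndrg1, a classical hypoxia-induced gene, was measured at 362 and 408 CPM in cycling wells and 1204 and 1415 CPM in non-cycling wells (log2 fold change -1.76 ± 0.12, adjusted p = 6.85e-42). Mxi1, an antagonist of Myc that is induced in hypoxia, was measured at 70.6 and 34.4 CPM in cycling wells and 162 and 153 CPM in non-cycling wells (log2 fold change -1.50 ± 0.27, adjusted p = 5.32e-07). Pfkfb3, which makes the activator of phosphofructokinase, was measured at 2.82 and 17.2 CPM in cycling wells and 86.9 and 63.4 CPM in non-cycling wells (log2 fold change -3.13 ± 0.52, adjusted p = 4.18e-08). Glycolytic enzymes that every cell uses were lower by smaller steps. Pgk1, phosphoglycerate kinase, was measured at 1816 and 1809 CPM in cycling wells and 3001 and 2648 CPM in non-cycling wells (log2 fold change -0.64 ± 0.10, adjusted p = 8.06e-10). Ldha, lactate dehydrogenase A, was measured at 1901 and 1642 CPM in cycling wells and 2418 and 2279.6 CPM in non-cycling wells (log2 fold change -0.41 ± 0.10, adjusted p = 0.000321; adjusted p = 0.0817 without replicate 3). Both were named after their values were seen, for their promoters. The list had 19 of 31 genes lower without replicate 1, when the call of Pfkfb3 was lost (adjusted p = 0.101), 19 of 31 without replicate 3 and 26 of 28 among wells under the keratin threshold.

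Promoters of 3 of these genes are shown for the core letters of the hypoxia response element, to which hypoxia-inducible factors bind. Capitals mark ACGTG or its reverse complement CACGT, which overlap where CACGTG stands. The stretches of 180 bases lie at chr2:11502091-11502270 (minus strand) for Pfkfb3, of which the second of the starts in the table is shown, chr7:46845624-46845803 (plus strand) for the first start of Ldha, and chrX:106186920-106187099 (plus strand) for Pgk1.
Pfkfb3: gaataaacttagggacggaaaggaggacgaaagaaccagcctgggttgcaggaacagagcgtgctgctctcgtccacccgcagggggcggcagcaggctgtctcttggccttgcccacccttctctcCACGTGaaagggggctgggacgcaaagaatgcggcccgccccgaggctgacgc
Ldha: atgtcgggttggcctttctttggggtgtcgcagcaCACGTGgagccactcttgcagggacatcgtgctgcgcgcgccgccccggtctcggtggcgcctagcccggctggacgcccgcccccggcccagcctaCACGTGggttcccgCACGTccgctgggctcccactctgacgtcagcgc
Pgk1: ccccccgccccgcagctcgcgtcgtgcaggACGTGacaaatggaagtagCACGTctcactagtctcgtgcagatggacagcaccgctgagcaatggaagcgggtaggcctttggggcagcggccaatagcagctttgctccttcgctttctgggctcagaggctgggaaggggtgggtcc
ACGTG on either strand was present in 22 of 34 windows of the hypoxia and glycolysis genes called lower (64.7%; 23 of 26 genes matched), in 26.7% of the windows of all genes called lower, in 27.1% over all genes tested and in 19.6% of all windows. The list was made up of genes known for this response, so the share describes the list.

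The keratins Krt5, Krt14 and Krt17 of basal cells and Krt8 and Krt18 of luminal cells were lower in cycling wells. Krt14, a keratin of basal cells, was measured at 79.1 and 81.7 CPM in cycling wells and 241 and 599 CPM in non-cycling wells (log2 fold change -2.23 ± 0.21, adjusted p = 2.74e-24), and the non-cycling level in replicate 3 was well above that in replicate 1. Krt17, a keratin of basal and stressed epithelium, was measured at 79.1 and 68.8 CPM in cycling wells and 203 and 388 CPM in non-cycling wells (log2 fold change -1.87 ± 0.22, adjusted p = 5e-15). Krt5, the partner of keratin 14, was measured at 299 and 193 CPM in cycling wells and 436 and 636 CPM in non-cycling wells (log2 fold change -1.02 ± 0.15, adjusted p = 9.95e-10). Of 7 basal markers tested 5 were lower and 0 higher (median -1.02), against 11.4% of all genes called lower. Without replicate 1 the calls of Krt17 (adjusted p = 0.0721) and Krt5 (0.133) were lost. Without replicate 3 those of Krt14 (adjusted p = 0.207), Krt17 (0.273) and Krt5 (0.598) were lost. The list had 1 of 7 genes lower without replicate 1 and 0 of 7 without replicate 3. Trp63, the basal master regulator, stood at 14.1 and 30.1 CPM in cycling wells and 37.9 and 40.9 CPM in non-cycling wells and did not pass the test (adjusted p = 0.138).

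Wells were also counted by keratins, with at least 10 counts per 10000 of Krt5, Krt14 and Krt17 together as keratin-basal. Such wells made up 8 of 43 cycling wells of replicate 1 (18.6%, exact 95% interval 8.39 to 33.4%) and 5 of 45 of replicate 3 (11.1%, 3.71 to 24.1%). Among non-cycling wells they were 34 of 146 (23.3%, 16.7 to 31.0%) and 49 of 130 (37.7%, 29.3 to 46.6%). The share was lower in cycling wells by 4.68 percentage points in replicate 1, where the intervals overlap, and by 26.6 in replicate 3. Without the keratin-basal wells 2 of 6 basal markers tested were lower and 0 higher, in a fit that called 507 of 5329 genes lower. The mean difference was -15.6 ± 15.5 percentage points (SD, n = 2 plates; exact paired permutation test p = 0.5, the smallest that 2 plates allow). With keratins counted on wells thinned to 2000 counts, the differences were -17.6 and -27.5 points (mean -22.5 ± 7.0). Among wells over 5000 counts they were -3.41 and -29.7, and with at least 20 keratin counts per 10000 they were -5.77 and -17.9.

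Luminal markers split. Krt8, a luminal keratin, was measured at 794 and 859 CPM in cycling wells and 1483 and 1642 CPM in non-cycling wells (log2 fold change -0.92 ± 0.11, adjusted p = 3.08e-15), and Krt18, its partner, at 506 and 584 CPM in cycling wells and 860.1 and 1032 CPM in non-cycling wells (log2 fold change -0.79 ± 0.12, adjusted p = 3.12e-09). Both keratins kept their order in each plate. Krt19, another luminal keratin, stood at 28.2 and 25.8 CPM in cycling wells and 25.6 and 16.4 CPM in non-cycling wells and was not called (log2 fold change 0.31 ± 0.49, adjusted p = 0.704). The call of Krt18 was lost without replicate 1 (adjusted p = 0.0546) and without replicate 3 (0.0595). Cd14, a luminal progenitor marker, was higher, at 689 and 769 CPM in cycling wells and 499 and 489 CPM in non-cycling wells (log2 fold change 0.55 ± 0.13, adjusted p = 0.000156), and lost its call without either plate (0.369 and 0.409). Cldn3, a tight junction protein, was higher at 198 and 142 CPM in cycling wells and 88.0 and 96.1 CPM in non-cycling wells (log2 fold change 0.93 ± 0.22, adjusted p = 0.00038), with no call without replicate 1 (0.547). The list had 3 genes higher and 2 lower of 9 tested (median 0.28), against 11.5% and 11.4% of all genes.

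Secretory genes were lower in part (3 of 7 tested lower, 0 higher, median -0.33), against 11.4% of all genes called lower. The count was 1 of 10 without replicate 1 and 3 of 10 without replicate 3. Trf, transferrin, was the most abundant of them, at 7026 and 7899 CPM in cycling wells and 12605 and 10991 CPM in non-cycling wells (log2 fold change -0.66 ± 0.08, adjusted p = 8.82e-14; adjusted p = 0.152 without replicate 1). Spp1, osteopontin, was measured at 805 and 705 CPM in cycling wells and 1454 and 2286 CPM in non-cycling wells (log2 fold change -1.24 ± 0.11, adjusted p = 1.27e-27). Mgp, matrix Gla protein, was measured at 209 and 507 CPM in cycling wells and 911 and 761 CPM in non-cycling wells (log2 fold change -1.34 ± 0.14, adjusted p = 1.2e-20), with the larger gap in replicate 1, and was not called without that plate (0.579). Among defence proteins, Lcn2, lipocalin 2, was abundant and stood at 5336 and 6863 CPM in cycling wells and 5449 and 6632 CPM in non-cycling wells, a log2 fold change of 0.01 ± 0.08 (adjusted p = 0.957). Hp, haptoglobin, was higher in cycling wells, at 136 and 189 CPM in cycling wells and 75.8 and 71.6 CPM in non-cycling wells (log2 fold change 1.08 ± 0.24, adjusted p = 9.92e-05; adjusted p = 0.142 without replicate 3).

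Genes of NF-kB and inflammation were lower in 2 of 13 tested and higher in 0 (median -0.35), not far from the 11.4% over all genes. One of the 2, Ier3, an early response gene that protects from cell death, was measured at 605 and 795 CPM in cycling wells and 1189 and 1484 CPM in non-cycling wells (log2 fold change -0.94 ± 0.11, adjusted p = 7.14e-15). Interferon and MHC class I genes were lower in 3 of 7 and higher in 0 (median -0.32), a larger share than over all genes. They were lower in 1 of 16 without replicate 1 and 1 of 17 without replicate 3. B2m, the light chain of MHC class I, was measured at 105 and 133 CPM in cycling wells and 208 and 309 CPM in non-cycling wells (log2 fold change -1.10 ± 0.21, adjusted p = 1.94e-06). For the small lists that follow, the shares over all genes were 11.5% higher and 11.4% lower. The Notch list had 1 gene lower of 7, Jag1, and NRF2 and glutathione genes had 3 higher and 1 lower of 12. Heat shock chaperones had 2 higher and 1 lower of 10, and of the 5 tested genes named with the prefix mt- only mt-Rnr1, a mitochondrial ribosomal RNA, was called. It was lower, with 11684 and 9781 CPM in cycling wells and 11761 and 13976 CPM in non-cycling wells, and not called without replicate 3 (adjusted p = 0.921).

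Wells between the thresholds were in neither group of the fit, and their values lack the scaling between the sums that the groups received. The genes counted here were called for a gap between the groups, and no share over all genes was taken. Over the 733 genes called higher, their level lay between those of the groups in 74.5% of genes in replicate 1 and 64.1% in replicate 3, and over the 729 called lower in 71.2% and 69.4%. It was nearer to the non-cycling level in 67.0% and 65.4% of the genes called higher and in 78.7% and 59.1% of those called lower. Ndrg1, for example, stood at 836 and 937 CPM between the thresholds, Fn1 at 1924 and 2063 CPM and Stmn1 at 237 and 120.2 CPM.

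The cycling effect was then set against that in BME in 1 fit of all 5 plates, with the matrix, the sequencing run and the depth inseparable, and differences are in log2 fold change, Collagen I minus BME. Of 10534 genes tested 24 (0.228%) had a more positive cycling effect in Collagen I and 46 (0.437%) a more negative one, and 1040 had an unadjusted p under 0.05. In the 9 named genes past the threshold, the differences took several forms. Stmn1 rose more in Collagen I, by 1.17 ± 0.20 on the log2 scale, adjusted p = 0.00578, and its BME values were 429.9, 365 and 382 CPM in cycling wells and 108, 84.5 and 98.4 CPM in non-cycling wells. Tuba1b rose less, by -0.72 ± 0.13 on the log2 scale, adjusted p = 0.00647, against 2306, 1966 and 2241 CPM in cycling wells and 382, 388 and 469 CPM in non-cycling wells in BME. Tubb6, a tubulin of class V, also rose less (-1.33 ± 0.28 on the log2 scale, adjusted p = 0.023), with 277, 247 and 273 CPM in cycling wells and 25.2, 39.8 and 27.2 CPM in non-cycling wells, against 266 and 211 CPM in cycling wells and 63.5 and 79.7 CPM in non-cycling wells in Collagen I. Hbegf was lower in cycling wells of Collagen I, whereas in BME it was low in both groups (15.3, 18.4 and 19.7 CPM in cycling wells and 14.9, 10.9 and 19.8 CPM in non-cycling wells), a difference of -2.48 ± 0.43 on the log2 scale, adjusted p = 0.00578. Ier3 differed by -1.11 ± 0.14 on the log2 scale, adjusted p = 0.00026, with 143, 147 and 164 CPM in cycling wells and 135, 131 and 143 CPM in non-cycling wells in BME. Krt8 differed by -0.76 ± 0.13 on the log2 scale, adjusted p = 0.00578, with 360.4, 307 and 302 CPM in cycling wells and 386, 331 and 376 CPM in non-cycling wells in BME. The acute-phase genes Hp (1.57 ± 0.25 on the log2 scale, adjusted p = 0.00327) and Cp, ceruloplasmin (0.80 ± 0.14 on the log2 scale, adjusted p = 0.00828), differed in the other direction. Hp stood at 446, 619.7 and 538 CPM in cycling wells and 705, 692 and 861 CPM in non-cycling wells in BME, with cycling below non-cycling wells in each BME plate. The difference of Dcn (3.71 ± 0.81 on the log2 scale, adjusted p = 0.0329) rests on a gene nearly confined to replicate 3 in Collagen I. Leaving out replicate 1 left 7 calls over all genes and leaving out replicate 3 left 5, and of the 9 genes only Ier3 kept its call without either plate (adjusted p = 0.0252 and 0.03).

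Among lists, 6 of the 29 hypoxia and glycolysis genes tested in Collagen I had a more negative cycling effect than in BME (Ero1l, Gapdh, Hk2, Pfkp, Pgk1 and Pkm, named after their values were seen) and 0 a more positive one, against 0.437% over all genes. In BME, where 21.6% of genes were called higher in cycling wells and 19.9% lower (41.5% in all), 15 of the 29 genes were lower and 1 higher. The medians of that list were -0.73 in Collagen I and -0.35 in BME. For the matrix list they were -1.20 and -0.69, with 2 genes differing downwards and 1 upwards. For S phase they were 1.65 and 1.67, and for ribosome biogenesis 1.01 and 0.79.

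**Figure D5:**
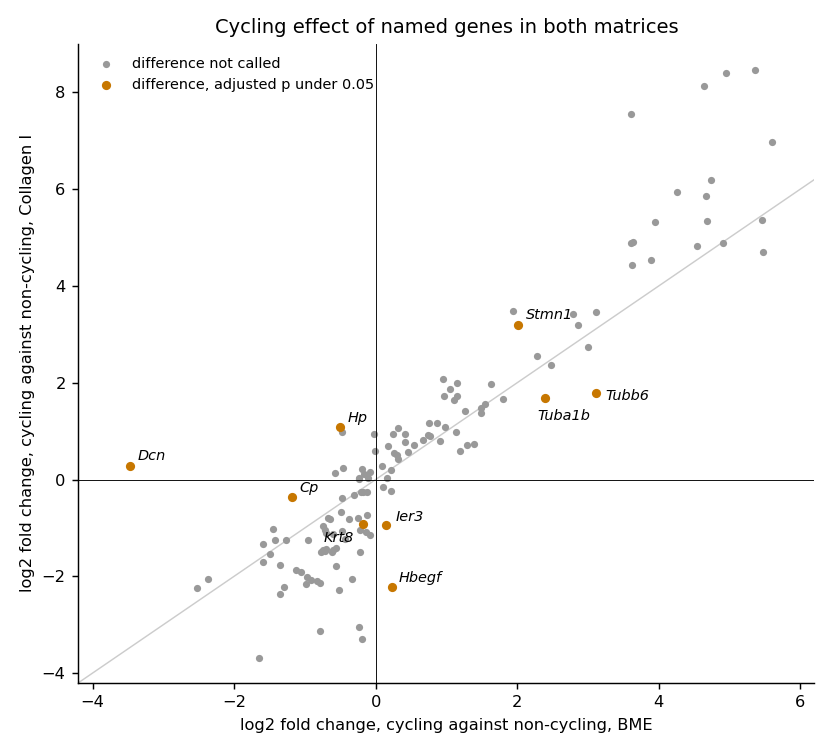
Each point is a gene picked by the rule for named genes outside the score, with the log2 fold change of cycling against non-cycling wells in BME (3 plates) on the horizontal axis and in Collagen I (2 plates) on the vertical axis, and the grey line marks equal values. Orange points with names are the 9 named genes whose difference passed the test, such as Hbegf (difference -2.48) below the line and Hp (1.57) above it.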

How the data were processed

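The authors sorted live single cells of MMTV-PyMT organoids from Collagen I and BME into 384-well plates, sequenced them by SORT-seq, aligned reads to mm10 with BWA (versions not given in the sources used here) and deposited a table per plate of estimated counts, that is UMI counts per gene and well corrected for UMI saturation. The labels give a UMI of 4 bases, whereas the deposited values match the correction for 6 bases, a space of 4096 UMIs. Here ERCC rows were dropped, wells with over 2000 counts and under 8000 genes were kept, and the counts of each group of wells were summed per plate and rounded. Cycling was compared with non-cycling by edgeR 4.0.16 (R 4.3.3) with the plate as block, TMM scaling, its default filter on low counts and Benjamini-Hochberg adjustment over all genes, at an adjusted p of 0.05. The 6 score genes were left untested.

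The groups of 1 plate share a sort and a library, which is where the pairing comes from (the deviations of the cycling and non-cycling sums of replicate 1 correlated at 0.137). Leaving out a Collagen I plate was done in a fit with the BME plates, whose spread the lone plate was assumed to share. The members and lists were chosen with earlier results of these data known. Named genes were the 12 largest changes per direction with at least 100 CPM in a group, and up to 4 per list, beside genes added after their values were seen and said to be so, and 2 genes that the rule picked are not reported here. Tested on simulated data of 6226 genes, the comparison recovered 14% of genes changed 2-fold and 68% of those changed 4-fold, with 6 false calls. The simulation gave every gene the same fixed spread, wider than the common value fitted in the comparison, and no difference between plates. Its shares therefore describe that setting and not these data. Promoter windows came from RefSeq (GRCm38.p6). Alternatives were another scaling, no filter, DESeq2 1.42.0, limma 3.58.1, no block, other score and depth limits, thinned wells and each plate left out.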

Additional observations from a re-analysis of the deposited data

Results flagged for a closer look

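In 9 named genes the cycling effect in Collagen I differed from that in BME by the test of the difference itself (log2 fold change in Collagen I minus that in BME). It was more negative in Collagen I for Hbegf (-2.48), Tubb6 (-1.33), Ier3 (-1.11), Krt8 (-0.76) and Tuba1b (-0.72). It was more positive for Cp (0.80), Stmn1 (1.17), Hp (1.57) and Dcn (3.71). Matrix, sequencing run and depth cannot be told apart in these differences. With every well thinned to 2000 counts only Cp passed the test among the 9 (adjusted p = 0.00106), and without the plate as a block none did (Hbegf and Hp were nearest, both with an adjusted p of 0.118). Dcn rests on counts of replicate 3.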

How the results depend on the processing

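The count of 1462 genes called (733 higher and 729 lower in cycling wells) stayed within 1.5 times under 10 of the 17 alternatives. It fell to 186 with DESeq2 (116 and 70), 388 with wells thinned to 2000 counts (200 and 188), 642 without the 5% deepest wells (324 and 318), 929 with wells over 5000 counts (468 and 461) and 974 with every well weighted equally (508 and 466). With 1 Collagen I plate left out it ranged from 424 to 655 (higher 196 to 404, lower 228 to 251). Without the replicate block 1059 genes were called. The median log2 fold change of all genes was -0.01, 0.05 with scaling by library size only and -0.17 with no filter. The 70 genes differing from BME (24 and 46) became 227 with no filter (40 and 187), 7 in thinned wells (3 and 4) and 1 without the replicate block (0 higher and 1 lower, with 1040 at an unadjusted p under 0.05 in the blocked fit). With each plate left out they ranged from 5 to 139 (higher 1 to 43, lower 4 to 96), and BME replicates 1, 2 and 3 left out gave 19, 139 and 127. The share of cycling wells, 19.8% as a mean of the plates, was 17.3% with thinned wells, 26.2% over 5000 counts and 13.96% at a score of at least 10. The ratio of median counts per ERCC count, 1.11, turned to 0.973 over 5000 counts and was 1.29 with the stricter score. With counts pooled over the wells, the plates went in opposite directions. Of the 122 called genes picked by rule, 35 were called under every alternative, and Ehf (-0.0689 without replicate 1 to 1.55 without replicate 3) and Psmb3 in thinned wells (-0.0201) changed sign. Of genes not called, Lcn2 changed sign with no filter (-0.0490), with 1 plate left out (-0.0477 to -0.0272), over 5000 counts (-0.0366), under 10% mt- counts (-0.00412), without the 5% deepest wells (-0.0792) and under the keratin threshold (-0.148). Dcn did so without replicate 3 (-0.26) and with the stricter score (-0.80), and Col1a2 without the 5% deepest wells (0.26). The causes were not tested. In simulated data with the depth and number of plates of these libraries 14% of genes changed 2-fold were called, and 2% in the comparison with BME. The simulated spread was fixed, wider than the common value fitted within Collagen I, and the plates did not differ. These shares therefore do not measure the recovery in the data themselves.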

Other observations

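Smaller groups hold genes not described above. Of the chaperones, Hsp90aa1, the inducible form of HSP90, was measured at 989 and 847 CPM in cycling wells and 554 and 568 CPM in non-cycling wells (log2 fold change 0.72 ± 0.12, adjusted p = 3.86e-08), and the small heat shock protein Hspb1 at 229 and 228 CPM in cycling wells and 302 and 550.0 CPM in non-cycling wells (log2 fold change -0.80 ± 0.16, adjusted p = 1.52e-05). The first call was lost without replicate 1 (adjusted p = 0.115) and the second without replicate 3 (0.284). Among NRF2 and glutathione genes, Txnrd1, thioredoxin reductase, stood at 158 and 163 CPM in cycling wells and 102 and 63.4 CPM in non-cycling wells (log2 fold change 0.89 ± 0.23, adjusted p = 0.00119; 0.159 without replicate 3), whereas Nqo1, a quinone reductase, stood at 90.4 and 73.1 CPM in cycling wells and 153 and 137 CPM in non-cycling wells (log2 fold change -0.81 ± 0.25, adjusted p = 0.00744) and was not called without either plate (0.153 and 0.115). Ifitm3, a membrane protein induced by interferon, stood at 963 and 971 CPM in cycling wells and 1166 and 1255 CPM in non-cycling wells (log2 fold change -0.32 ± 0.11, adjusted p = 0.0184; 0.0821 without replicate 1 and 0.203 without replicate 3).

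Nfkbia, the inhibitor of NF-kB and itself a target of it, was measured at 96.0 and 180.5 CPM in cycling wells and 193 and 339 CPM in non-cycling wells (log2 fold change -0.95 ± 0.20, adjusted p = 2.9e-05). Itga3, the alpha subunit of a laminin receptor, was measured at 429 and 288 CPM in cycling wells and 584 and 636 CPM in non-cycling wells (log2 fold change -0.73 ± 0.14, adjusted p = 3.39e-06; adjusted p = 0.232 without replicate 3). F3, tissue factor, was measured at 39.5 and 34.4 CPM in cycling wells and 127 and 61.3 CPM in non-cycling wells (log2 fold change -1.41 ± 0.33, adjusted p = 0.000252; 0.415 without replicate 1). Klf4, a zinc finger factor of differentiation and early response, was measured at 2.82 and 30.1 CPM in cycling wells and 24.5 and 81.8 CPM in non-cycling wells (log2 fold change -1.79 ± 0.50, adjusted p = 0.00266), with overlap between the groups over the plates, and was not called without either plate (0.163 and 0.0922).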
